A study of Mus musculus with 16 samples.

Results

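The 48 genes described here encode the machinery of DNA replication and cell division, and were followed in RNA sequencing of mouse aortas. They were taken by gene symbol, with 1 row for each symbol, from deposited tables of counts and of fragments per kilobase of gene scaled to library size (FPKM) for 54532 genes. By role they were 14 cyclins, mitotic kinases and anaphase genes, 13 chromosome, spindle and cytokinesis genes, 12 genes of origin licensing and the replication fork, 3 genes of deoxynucleotide supply, 5 G1/S cyclins and cell cycle transcription factors, and Lmnb1 of the nuclear lamina.

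The study asked how dietary phosphate and protein bear on calcification of arteries in chronic kidney disease. Aortas of 16 male C57BL/6J mice were sequenced, 4 in each of 4 groups, 1 library per mouse. In the 5/6 nephrectomy (5/6 Nx), the poles of the left kidney were ligated in mice 12 weeks old and the right kidney was removed a week later, and Sham mice were operated on with both kidneys left intact. Sham and 5/6 Nx-HPi-Lp mice ate 2% phosphorus with 2.5% protein, 5/6 Nx-HPi-Hp mice ate 2% phosphorus with 18% protein, and 5/6 Nx-LPi-Lp mice ate 0.3% phosphorus with 2.5% protein, each for 30 days per the labels after a recovery of 2 weeks. 5/6 Nx-HPi-Lp thus differed from Sham by surgery, from 5/6 Nx-HPi-Hp by protein and from 5/6 Nx-LPi-Lp by phosphorus. Both of the latter groups differed from Sham by surgery and diet at the same time, and these cannot be told apart, since the only Sham group ate the high-phosphate and low-protein diet.

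A cell that enters the cycle first makes E2F-driven genes, which license origins of replication and supply the enzymes of DNA synthesis. Genes needed for G2 and mitosis follow, under the control of B-Myb, FoxM1 and the MuvB complex. In resting cells the DREAM complex holds these genes off, so that their mRNAs are low in tissue with few dividing cells. The smooth muscle cells of a healthy adult aorta rarely divide, while smooth muscle cells, fibroblasts and macrophages of injured or inflamed arteries can enter the cycle.

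The promoters are shown because genes of mitosis and genes of licensing differ in the short motifs known to control them, and because the groups below were read by these roles. RefSeq windows on GRCm38.p6 (mm10 in the naming the authors used), from 250 bases before to 50 bases after the gene start, matched 39 of the 48 members and 27025 genes in all. Each was searched on both strands for TTTGAA (the core of the cell cycle genes homology region, CHR), for CCAAT (the box bound by NF-Y), and for TTTCCCGC or TTTGGCGC (forms of the E2F motif). Other forms of the E2F motif were not searched. No matches of different motifs overlapped each other in a member window. TTTGAA was in 20 member windows (51.3%) against 18.1% of all windows, CCAAT was in 29 (74.4%) against 37.9%, and the pair together was in 18 (46.2%) against 7.12%. The pair was found in 8 of 12 windows of the mitotic regulators and in 8 of 11 windows of the chromosome and spindle genes. TTTCCCGC or TTTGGCGC was in 6 member windows (15.4%) against 1.63% of all windows, and those 6 were Mcm3, Mcm5, Mcm6, Mcm7, Cdc6 and Cdt1. The windows of 4 members follow, with matches in capitals on either strand: Ccnb2 and Cdk1, which rose in 5/6 Nx-HPi-Lp aortas against each other group, and Anln and Mcm6, whose levels were lower than in Sham. Ccnb2 is at chr9:70421505-70421804, Cdk1 at chr10:69352863-69353162, Anln at chr9:22389157-22389456 and Mcm6 at chr1:128359656-128359955, and all 4 are on the minus strand.
Ccnb2: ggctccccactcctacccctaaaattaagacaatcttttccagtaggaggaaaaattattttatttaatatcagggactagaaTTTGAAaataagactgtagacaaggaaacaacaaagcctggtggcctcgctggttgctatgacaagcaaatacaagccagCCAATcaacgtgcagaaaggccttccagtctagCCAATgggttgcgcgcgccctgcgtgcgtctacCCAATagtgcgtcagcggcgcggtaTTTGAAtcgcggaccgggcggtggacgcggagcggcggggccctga
Cdk1: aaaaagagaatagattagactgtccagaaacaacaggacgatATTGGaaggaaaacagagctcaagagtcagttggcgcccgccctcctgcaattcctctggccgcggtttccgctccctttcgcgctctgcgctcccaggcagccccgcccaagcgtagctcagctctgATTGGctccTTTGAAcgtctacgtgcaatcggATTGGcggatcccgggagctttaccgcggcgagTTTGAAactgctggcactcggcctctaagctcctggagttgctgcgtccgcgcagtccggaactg
Anln: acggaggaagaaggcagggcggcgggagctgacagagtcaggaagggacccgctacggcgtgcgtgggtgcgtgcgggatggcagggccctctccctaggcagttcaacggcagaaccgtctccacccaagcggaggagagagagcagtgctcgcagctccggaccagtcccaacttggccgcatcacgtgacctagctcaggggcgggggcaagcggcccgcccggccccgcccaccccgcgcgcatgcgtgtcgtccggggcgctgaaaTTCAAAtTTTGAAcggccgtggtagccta
Mcm6: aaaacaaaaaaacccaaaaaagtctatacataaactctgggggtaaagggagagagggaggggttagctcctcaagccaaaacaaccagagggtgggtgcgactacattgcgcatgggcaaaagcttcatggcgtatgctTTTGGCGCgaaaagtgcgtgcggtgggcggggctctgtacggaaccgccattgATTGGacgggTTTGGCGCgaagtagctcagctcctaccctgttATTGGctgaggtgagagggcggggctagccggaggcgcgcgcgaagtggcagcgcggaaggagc
The Ccnb2 window held TTTGAA at positions -167 and 5, counted from the gene start, with CCAAT at -87, -54 and -21, and the Cdk1 window held TTTGAA at -71 and -15. The Anln window held TTTGAA at 22 and 29 and no CCAAT. The Mcm6 window held TTTGGCGC at -110 and -47, with CCAAT at -57 and -14. These are matches of letters and were not tested for binding.

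Library totals ranged from 13659525 to 57276915 counts, and the 2 deepest were 5/6 Nx-HPi-Lp replicates 2 and 3, with 57276915 and 46499243 counts against 15665005 and 15013203 in replicates 1 and 4. Mitochondrially encoded genes took 4.18% to 6.34% of counts in Sham and 9.50% to 29.0% in the nephrectomized groups. CPM values are counts scaled by the library total and by a further factor between libraries, edgeR's TMM factor. The 6 smooth muscle markers, which define the aortic media, summed to 21666 to 25737 CPM in Sham and to 2223 to 5034 CPM in 5/6 Nx-HPi-Lp. In bulk tissue, fewer cells of a type and less RNA per cell cannot be told apart. The p-values below measure the spread between these mice, whose litters, cages and days are not given. Counts of Ccnb1, Ccnb2, Pcna and Tyms are uncertain where reads could fall on their listed pseudogenes (Ccnb1-ps, Ccnb2-ps, Pcna-ps1, Pcna-ps2 and Tyms-ps).

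Levels below are FPKM in replicates 1 to 4 of a group, in that order, and the replicate order carries no meaning. Differences are log2 fold changes ± standard error from edgeR's quasi-likelihood test on the counts of the 8 libraries compared, with Benjamini-Hochberg adjustment over all genes tested. The standard error was derived from the test, as the size of the log2 fold change divided by the square root of its F statistic. A gene is said to have risen or fallen at an adjusted p of at most 0.05 with a log2 fold change of at least 1 in size.

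Cell cycle mRNAs were scarce in the aorta of Sham mice and more abundant in that of 5/6 Nx-HPi-Lp mice, on the same diet. The mean level was under 1 FPKM for 36 of 48 members in Sham, from 0.0324 ± 0.0109 (SD, n = 4) for Ttk to 15.5 ± 0.864 for Pcna, and for 11 of 48 in 5/6 Nx-HPi-Lp. It was under 1 FPKM for 30 in 5/6 Nx-HPi-Hp and for 37 in 5/6 Nx-LPi-Lp. The highest mean of the 4 groups was in 5/6 Nx-HPi-Lp for 46 of 48 members, and Sham had the highest mean for Anln and Mcm6.

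**Figure D1:**
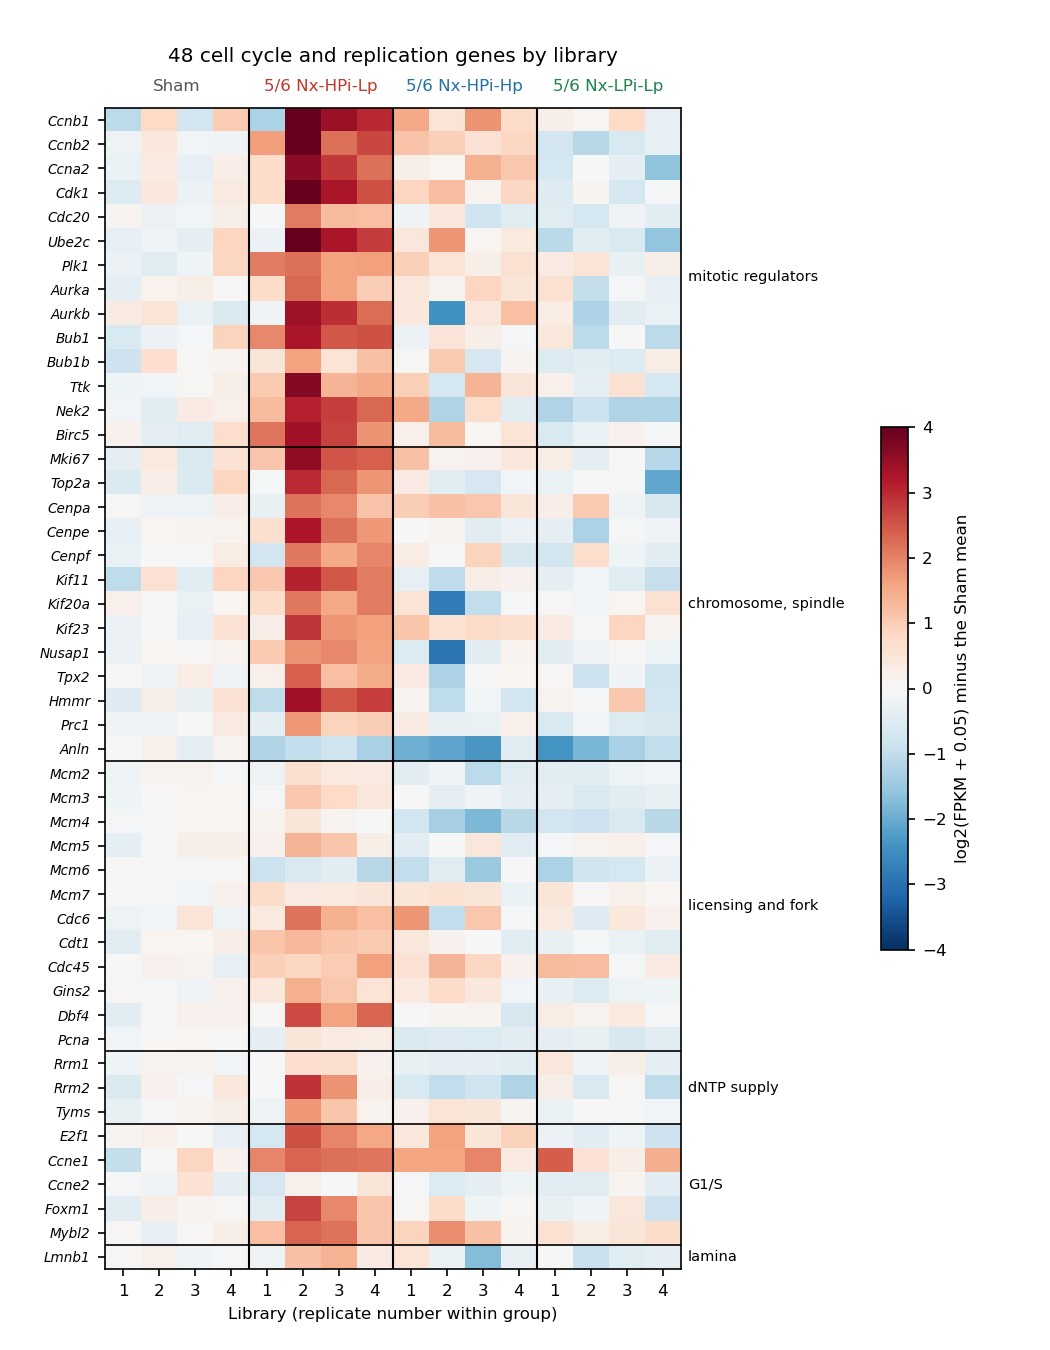
Level of each of the 48 members (rows, ordered by role) in each of the 16 libraries (columns, by group), as log2(FPKM + 0.05) minus the mean of the 4 Sham libraries, in color. Most rows are high in 5/6 Nx-HPi-Lp replicates 2, 3 and 4 and less so in replicate 1, which was the lowest of its group for 39 of 48 members, and the row of Anln is low in all 12 nephrectomized libraries and that of Mcm6 in all of them but 5/6 Nx-HPi-Hp replicate 4.

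The 4 5/6 Nx-HPi-Lp libraries were not alike. Replicate 2 was the highest of its group for 41 of 48 members and replicate 1 the lowest for 39. Replicates 2, 3 and 4 exceeded all Sham libraries for 45, 44 and 41 of 48 members, where 40.5%, 39.2% and 40.0% of all genes tested did so. Replicate 1 exceeded them for 21, near its share of 39.6% of all genes, and was below them for 11, where 39.1% of all genes were. In the other nephrectomized groups, the libraries of 5/6 Nx-HPi-Hp exceeded all Sham libraries for 21, 16, 18 and 10 members (30.6% to 41.7% of all genes), and those of 5/6 Nx-LPi-Lp for 4 to 8 (31.6% to 37.5%). All 4 libraries lay above all 12 libraries of the other groups for 9 of 47 members tested (Ccnb2, Plk1, Bub1, Birc5, Cenpe, Kif11, Kif20a, Nusap1 and Cdt1), as did 5.71% of all genes tested in these 3 comparisons.

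Surgery on the shared diet came with higher mRNA for most of the mitotic machinery. Against Sham, 32 of 48 members rose in 5/6 Nx-HPi-Lp and 1 fell, while 15.0% of all genes tested rose and 7.18% fell. The members had a median log2 fold change of 1.75, and all genes tested one of -0.00. All 4 libraries of 5/6 Nx-HPi-Lp lay above all 4 of Sham for 20 members and below them for 2, where 21.4% and 20.4% of all genes did so. Of the 33 calls, 22 held in each of the 8 fits with 1 library left out, which called 23 to 39 members.

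Fewer members passed against the nephrectomized mice that ate more protein. Against 5/6 Nx-HPi-Hp, 13 of 47 members tested rose in 5/6 Nx-HPi-Lp and none fell, while 8.12% of all genes were called, 5.01% higher and 3.11% lower. An unadjusted p under 0.05 was found for 32 of 47 members and for 5003 of 16198 genes in all. DESeq2 called 23 members higher, and no member was called lower by edgeR, DESeq2 or limma. The members' median log2 fold change was 1.33 against 0.01 for all genes, and all 4 libraries lay above all 4 of 5/6 Nx-HPi-Hp for 13 members, as for 10.9% of all genes, and below them for 0, as for 9.63%. Hmmr had too few libraries with enough counts to be tested here. It had 476 counts in 5/6 Nx-HPi-Lp (0, 297, 126 and 53 in replicates 1 to 4) and 10 in 5/6 Nx-HPi-Hp. Calls in this comparison rested on few libraries. With 1 library left out, 23 members were called without 5/6 Nx-HPi-Lp replicate 1, 6 without its replicate 2 and 7 without its replicate 4, and 6 and 5 without 5/6 Nx-HPi-Hp replicates 2 and 3. Bub1, Birc5, Cenpe, Kif11 and Mcm4 were called in each of these fits. Bub1, at 3 to 5 counts in each 5/6 Nx-HPi-Hp library, passed the count filter only through 5/6 Nx-HPi-Lp, where it was high.

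Most members were also lower in the mice fed less phosphorus. Against 5/6 Nx-LPi-Lp, 30 of 48 members rose in 5/6 Nx-HPi-Lp and none fell, while 7.90% of all genes rose and 3.98% fell. An unadjusted p under 0.05 was found for 40 of 48 members and for 5808 of 16253 genes in all. No member was called lower by edgeR, DESeq2 or limma. The median log2 fold change was 1.76 against -0.02 for all genes, and all 4 libraries lay above all 4 of 5/6 Nx-LPi-Lp for 23 members, as for 12.7% of all genes. Of the 30 calls, 16 held with any 1 library left out, and 17 members were called without 5/6 Nx-HPi-Lp replicate 2 or without 5/6 Nx-LPi-Lp replicate 3. The 3 comparisons share the 5/6 Nx-HPi-Lp libraries, and 11 of 47 members were called higher in all 3, as were 3.96% of all genes: Ccnb2, Cdk1, Plk1, Bub1, Birc5, Mki67, Top2a, Cenpe, Kif11, Cdt1 and Dbf4. Of these 11, only Bub1, Birc5, Cenpe and Kif11 kept all 3 calls with any 1 library left out.

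**Figure D2:**
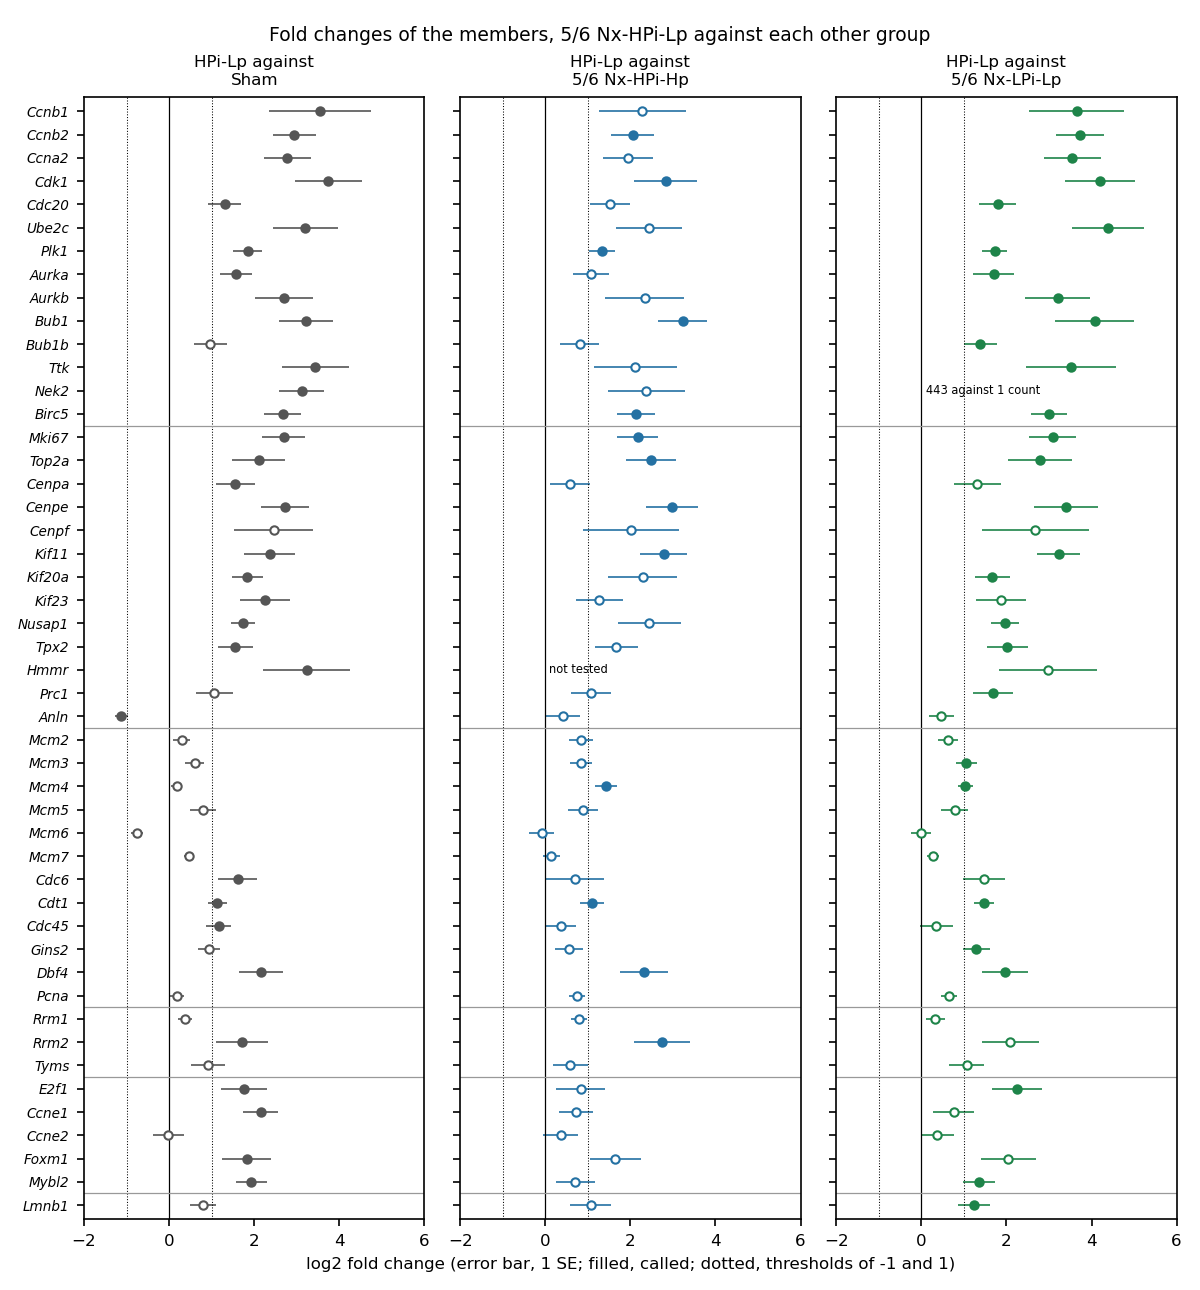
Log2 fold change ± standard error of each member in 5/6 Nx-HPi-Lp against Sham, against 5/6 Nx-HPi-Hp and against 5/6 Nx-LPi-Lp (3 panels, members in rows by role), filled where the member was called. Nearly all members lie to the right of 0 in all 3 panels, and Anln and Mcm6 lie to the left against Sham. Nek2 against 5/6 Nx-LPi-Lp is given as its counts, 443 against 1, and Hmmr against 5/6 Nx-HPi-Hp was not tested.

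The regulators of mitosis had the highest median fold change of the 6 roles in each of the 3 comparisons. Of the 14 cyclins, mitotic kinases and anaphase genes, 13 rose against Sham (median log2 fold change 2.86), 5 against 5/6 Nx-HPi-Hp (2.12) and 14 against 5/6 Nx-LPi-Lp (3.53). With 1 library left out, 11 to 14, 2 to 9 and 9 to 14 of them were called in these comparisons, with the lowest counts without 5/6 Nx-HPi-Lp replicate 2 or 4 or 5/6 Nx-HPi-Hp replicate 2 or 3 against 5/6 Nx-HPi-Hp and without 5/6 Nx-LPi-Lp replicate 3 against 5/6 Nx-LPi-Lp. Their summed level was 13.1, 18.2, 14.6 and 21.2 CPM in Sham and 33.0, 162, 83.0 and 65.8 CPM in 5/6 Nx-HPi-Lp. It was 20.1 to 25.6 CPM in 5/6 Nx-HPi-Hp and 11.4 to 12.6 CPM in 5/6 Nx-LPi-Lp. All 5/6 Nx-HPi-Lp libraries thus lay above all others, and 5/6 Nx-LPi-Lp lay below all Sham libraries.

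Cdk1, the kinase that drives entry into mitosis, had the largest fold change against Sham. It was at 0.0894, 0.220, 0.122 and 0.209 FPKM in Sham and at 0.288, 5.43, 1.90 and 1.13 FPKM in 5/6 Nx-HPi-Lp. Its level was 0.314, 0.430, 0.174 and 0.312 FPKM in 5/6 Nx-HPi-Hp and 0.0902, 0.168, 0.0746 and 0.143 FPKM in 5/6 Nx-LPi-Lp. Its 5/6 Nx-HPi-Lp libraries lay above all Sham and 5/6 Nx-LPi-Lp libraries, and replicate 1 lay within the range of 5/6 Nx-HPi-Hp. The log2 fold change was 3.74 ± 0.78 (adjusted p = 0.00385) against Sham, 2.83 ± 0.75 (adjusted p = 0.036) against 5/6 Nx-HPi-Hp and 4.20 ± 0.82 (adjusted p = 0.00953) against 5/6 Nx-LPi-Lp. Without 5/6 Nx-HPi-Lp replicate 2 these were 2.79 (adjusted p = 0.0051), 1.86 (adjusted p = 0.0907) and 3.20 (adjusted p = 0.014), and the call against 5/6 Nx-HPi-Hp was lost in 7 of 8 such fits.

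The cyclin partners of Cdk1 moved with it. Ccnb2, cyclin B2, was at 0.600, 0.956, 0.647 and 0.625 FPKM in Sham and 2.32, 11.9, 3.39 and 4.65 FPKM in 5/6 Nx-HPi-Lp. It was at 1.60, 1.39, 1.07 and 1.28 FPKM in 5/6 Nx-HPi-Hp and 0.400, 0.291, 0.433 and 0.553 FPKM in 5/6 Nx-LPi-Lp. The 4 5/6 Nx-HPi-Lp libraries were above all 12 others. The log2 fold change was 2.95 ± 0.50 (adjusted p = 0.00133) against Sham, 2.05 ± 0.50 (adjusted p = 0.0272) against 5/6 Nx-HPi-Hp and 3.72 ± 0.56 (adjusted p = 0.00356) against 5/6 Nx-LPi-Lp, and 2.28, 1.37 and 3.01 without 5/6 Nx-HPi-Lp replicate 2, where the adjusted p against 5/6 Nx-HPi-Hp was 0.0625. Ccna2, cyclin A2 of S phase and G2, rose on the log2 scale by 2.78 ± 0.55 (adjusted p = 0.00278) against Sham and 3.55 ± 0.67 (adjusted p = 0.00828) against 5/6 Nx-LPi-Lp, and against 5/6 Nx-HPi-Hp its log2 fold change was 1.94 ± 0.59 (adjusted p = 0.0558). Ccnb1, cyclin B1, was at 0 in 5/6 Nx-HPi-Lp replicate 1 and at 2.34, 1.26 and 0.921 FPKM in replicates 2, 3 and 4, where Sham was at 0.00871, 0.159, 0.0204 and 0.191 FPKM. Its rise of 3.55 ± 1.19 (adjusted p = 0.0362) against Sham held only without 5/6 Nx-HPi-Lp replicate 1 among the 8 fits, as did that of 3.65 ± 1.12 (adjusted p = 0.0464) against 5/6 Nx-LPi-Lp. Without 5/6 Nx-HPi-Lp replicate 2 these fold changes were 2.94 and 3.00, and the highest adjusted p were 0.0979 and 0.103.

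The polo-like kinase Plk1, which acts at centrosomes, kinetochores and the midbody, varied least among the 5/6 Nx-HPi-Lp mice of these 14 genes. Its level was 0.668, 0.589, 0.705 and 1.44 FPKM in Sham, 3.50, 3.88, 2.54 and 2.62 FPKM in 5/6 Nx-HPi-Lp, 1.58, 1.20, 0.957 and 1.23 FPKM in 5/6 Nx-HPi-Hp and 1.01, 1.19, 0.636 and 0.941 FPKM in 5/6 Nx-LPi-Lp. No library of another group reached the lowest 5/6 Nx-HPi-Lp library. Plk1 rose on the log2 scale by 1.85 ± 0.33 (adjusted p = 0.00181) against Sham, 1.33 ± 0.30 (adjusted p = 0.0218) against 5/6 Nx-HPi-Hp and 1.73 ± 0.30 (adjusted p = 0.00563) against 5/6 Nx-LPi-Lp, and the second of these calls was lost without 5/6 Nx-HPi-Lp replicate 2 or 4 or 5/6 Nx-HPi-Hp replicate 2 or 3 (adjusted p of 0.0527 to 0.0588).

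Kinases and adaptors of the spindle checkpoint and the chromosomal passenger complex followed. Bub1, a checkpoint kinase, was at 0.0169, 0.0384, 0.0494 and 0.141 FPKM in Sham, 0.342, 0.938, 0.528 and 0.550 in 5/6 Nx-HPi-Lp, 0.0368, 0.0975, 0.0716 and 0.0488 in 5/6 Nx-HPi-Hp and 0.0894, 0, 0.0508 and 0 in 5/6 Nx-LPi-Lp. Birc5, survivin, was at 0.367, 0.233, 0.215 and 0.562 FPKM in Sham, 1.60, 3.74, 2.40 and 1.26 in 5/6 Nx-HPi-Lp, 0.377, 0.848, 0.344 and 0.499 in 5/6 Nx-HPi-Hp and 0.196, 0.262, 0.368 and 0.304 in 5/6 Nx-LPi-Lp. For each gene the 5/6 Nx-HPi-Lp libraries did not overlap any other group. Bub1 rose on the log2 scale by 3.22 ± 0.63 (adjusted p = 0.00264) against Sham, 3.23 ± 0.57 (adjusted p = 0.00893) against 5/6 Nx-HPi-Hp and 4.07 ± 0.94 (adjusted p = 0.0174) against 5/6 Nx-LPi-Lp, on totals of 27 counts in Sham, 16 in 5/6 Nx-HPi-Hp and 10 in 5/6 Nx-LPi-Lp. Without Sham replicate 4 its first fold change was 4.02, and without 5/6 Nx-LPi-Lp replicate 1 the one against 5/6 Nx-LPi-Lp was 5.21. Birc5 rose on the log2 scale by 2.67 ± 0.44 (adjusted p = 0.00105), 2.13 ± 0.45 (adjusted p = 0.0167) and 3.00 ± 0.43 (adjusted p = 0.00287) in the same order, and all these calls of Bub1 and Birc5 held with any 1 library left out. At its low counts in the other groups, Bub1 passed the count filter only through 5/6 Nx-HPi-Lp.

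In the ubiquitin arm of anaphase, Ube2c and Cdc20 rose against Sham and against 5/6 Nx-LPi-Lp and were not called against 5/6 Nx-HPi-Hp. Ube2c, the E2 enzyme of the anaphase-promoting complex, was at 0.325, 0.370, 0.314 and 0.795 FPKM in Sham and 0.348, 8.90, 4.48 and 3.21 FPKM in 5/6 Nx-HPi-Lp, with 0.596, 1.53, 0.450 and 0.572 FPKM in 5/6 Nx-HPi-Hp and 0.171, 0.294, 0.255 and 0.109 FPKM in 5/6 Nx-LPi-Lp. Replicate 1 of 5/6 Nx-HPi-Lp lay among the Sham libraries, and the other 3 lay above every library of the other groups. Ube2c rose on the log2 scale by 3.20 ± 0.76 (adjusted p = 0.00773) against Sham and 4.39 ± 0.85 (adjusted p = 0.00894) against 5/6 Nx-LPi-Lp, or by 2.57 and 3.71 without 5/6 Nx-HPi-Lp replicate 2. Cdc20, the activator of that complex, rose on the log2 scale by 1.30 ± 0.39 (adjusted p = 0.022) against Sham and 1.79 ± 0.43 (adjusted p = 0.0204) against 5/6 Nx-LPi-Lp, and the first call was lost without Sham replicate 1, 2 or 3 or 5/6 Nx-HPi-Lp replicate 2 (adjusted p of 0.0538 to 0.0707). Their log2 fold changes against 5/6 Nx-HPi-Hp were 2.44 ± 0.77 (adjusted p = 0.0644) for Ube2c and 1.52 ± 0.47 (adjusted p = 0.0602) for Cdc20.

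Among the other mitotic kinases, Aurkb, the passenger complex kinase, rose on the log2 scale by 2.71 ± 0.68 (adjusted p = 0.0099) against Sham and 3.20 ± 0.76 (adjusted p = 0.0193) against 5/6 Nx-LPi-Lp, the second lost without 5/6 Nx-LPi-Lp replicate 3 (adjusted p = 0.0571). Aurka, the centrosome kinase, rose on the log2 scale by 1.57 ± 0.38 and 1.70 ± 0.49, and Ttk, the checkpoint kinase Mps1, rose on the log2 scale by 3.44 ± 0.79 and 3.52 ± 1.05, each against Sham and 5/6 Nx-LPi-Lp. Without 5/6 Nx-HPi-Lp replicate 2 the Ttk fold change against Sham was 2.21, and that library held 0.983 FPKM where the other 3 held 0.118 to 0.184 FPKM. Against 5/6 Nx-LPi-Lp the call of Aurka was lost in 6 of 8 fits with 1 library left out and that of Ttk in 5 of the 6 fits that tested it, with adjusted p up to 0.0909 and 0.104, and the Ttk fold change was 4.22 without 5/6 Nx-LPi-Lp replicate 3. Nek2, a centrosome kinase, rose on the log2 scale by 3.12 ± 0.53 (adjusted p = 0.00127) against Sham, and against 5/6 Nx-LPi-Lp it had 443 counts against 1, a ratio of 229 with a 95% interval of 40.8 to 9051 that covers counting error only. Bub1b, BubR1 of the checkpoint, had a log2 fold change of 0.97 ± 0.39 (adjusted p = 0.0713) against Sham and rose on the log2 scale by 1.39 ± 0.39 (adjusted p = 0.0341) against 5/6 Nx-LPi-Lp, a call lost in 5 of 8 fits (adjusted p of 0.0757 to 0.0913). The log2 fold changes of Aurkb, Aurka, Ttk, Nek2 and Bub1b against 5/6 Nx-HPi-Hp were 2.33, 1.08, 2.12, 2.38 and 0.81, and none was called (adjusted p of 0.121, 0.113, 0.17, 0.107 and 0.25).

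**Figure D3:**
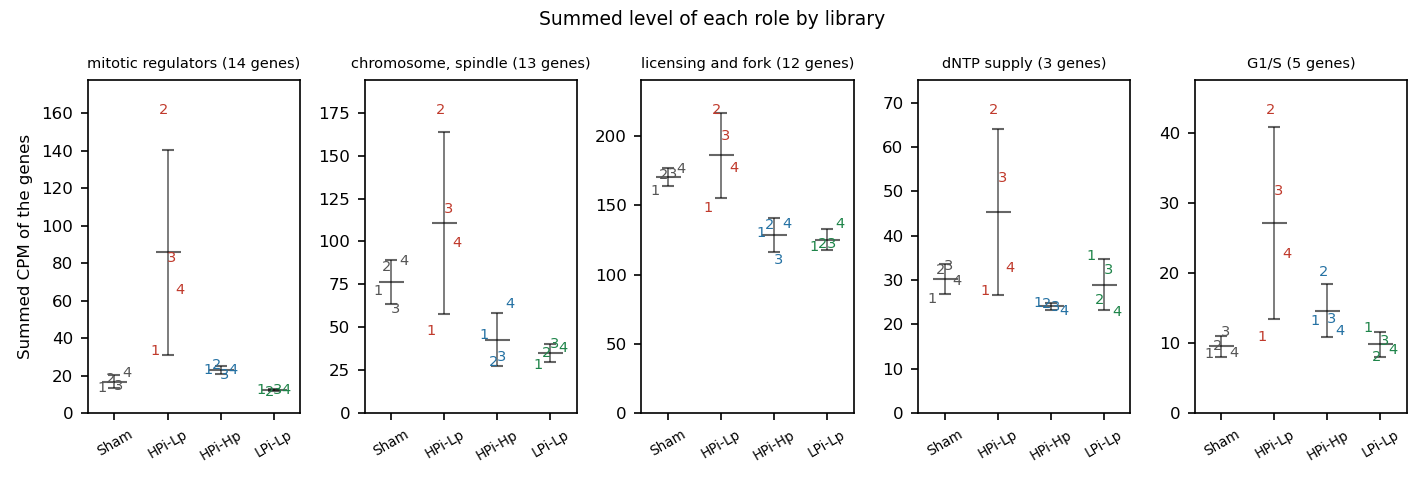
Summed CPM of the members of each role (panels) in each library (points), by group, with the group mean. The mitotic regulators of 5/6 Nx-HPi-Lp, at 33.0 to 162 CPM, lie above the 3 other groups (11.4 to 25.6 CPM), while the licensing and fork genes of 5/6 Nx-HPi-Lp, at 148 to 219 CPM, overlap Sham, at 161 to 176 CPM.

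Most genes of chromosomes, the spindle and cytokinesis rose against Sham, where Anln fell and Cenpf and Prc1 did not pass. Of these 13 genes, 10 rose and 1 fell against Sham (median log2 fold change 2.10), 4 of 12 tested rose against 5/6 Nx-HPi-Hp (2.09) and 8 rose against 5/6 Nx-LPi-Lp (2.02). With 1 library left out, 7 to 12, 2 to 8 and 5 to 12 of them rose, with 8 against 5/6 Nx-HPi-Hp when 5/6 Nx-HPi-Lp replicate 1 was left out and 2 when 5/6 Nx-HPi-Hp replicate 3 was, and with 5 against 5/6 Nx-LPi-Lp without 5/6 Nx-HPi-Lp replicate 2 or 4 or 5/6 Nx-LPi-Lp replicate 1 or 3. Mki67, the gene of the proliferation marker Ki-67, was at 0.219, 0.411, 0.184 and 0.468 FPKM in Sham and 0.713, 4.00, 1.93 and 1.79 FPKM in 5/6 Nx-HPi-Lp. It was at 0.743, 0.337, 0.349 and 0.427 FPKM in 5/6 Nx-HPi-Hp and 0.381, 0.215, 0.300 and 0.108 FPKM in 5/6 Nx-LPi-Lp. The 5/6 Nx-HPi-Lp libraries lay above all others, except that 5/6 Nx-HPi-Hp replicate 1 was above 5/6 Nx-HPi-Lp replicate 1. Mki67 rose on the log2 scale by 2.69 ± 0.50 (adjusted p = 0.00208), 2.17 ± 0.48 (adjusted p = 0.0199) and 3.09 ± 0.55 (adjusted p = 0.00642) against Sham, against 5/6 Nx-HPi-Hp and against 5/6 Nx-LPi-Lp, and the call against 5/6 Nx-HPi-Hp was lost without its replicate 2 or 3 (adjusted p = 0.0672 and 0.0526).

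The motors Kif11 and Cenpe rose in all 3 comparisons. Kif11, the Eg5 motor that separates spindle poles, was at 0.0686, 0.321, 0.125 and 0.389 FPKM in Sham, 0.456, 2.00, 1.31 and 0.968 in 5/6 Nx-HPi-Lp, 0.144, 0.0704, 0.243 and 0.220 in 5/6 Nx-HPi-Hp and 0.138, 0.172, 0.122 and 0.0781 in 5/6 Nx-LPi-Lp. Cenpe, a kinetochore motor, was at 0.0597, 0.0970, 0.0998 and 0.102 FPKM in Sham and 0.165, 1.25, 0.590 and 0.413 FPKM in 5/6 Nx-HPi-Lp, with 0.0867, 0.0985, 0.0543 and 0.0677 FPKM in 5/6 Nx-HPi-Hp and 0.0581, 0.00739, 0.0854 and 0.0764 FPKM in 5/6 Nx-LPi-Lp. Every 5/6 Nx-HPi-Lp library lay above all others for Kif11 and Cenpe. Kif11 rose on the log2 scale by 2.36 ± 0.59 (adjusted p = 0.01), 2.79 ± 0.55 (adjusted p = 0.0136) and 3.22 ± 0.51 (adjusted p = 0.00414), and Cenpe by 2.73 ± 0.56 (adjusted p = 0.00352), 2.97 ± 0.61 (adjusted p = 0.0152) and 3.41 ± 0.75 (adjusted p = 0.0151), each call held with any 1 library left out. Without 5/6 Nx-HPi-Lp replicate 2 the Cenpe fold changes were 2.12, 2.35 and 2.76. Kif20a and Kif23, motors of the central spindle, rose against Sham by 1.83 ± 0.37 and 2.26 ± 0.58, and against 5/6 Nx-LPi-Lp Kif20a rose on the log2 scale by 1.67 ± 0.41, a call lost in 5 of 8 fits (adjusted p of 0.0507 to 0.0652). Kif23 had a log2 fold change of 1.87 ± 0.60 (adjusted p = 0.0529) there.

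Top2a, topoisomerase II of chromosome condensation, split the 5/6 Nx-HPi-Lp libraries. It was at 0.179, 0.362, 0.177 and 0.573 FPKM in Sham, 0.280, 2.65, 1.61 and 1.11 in 5/6 Nx-HPi-Lp, 0.373, 0.198, 0.164 and 0.265 in 5/6 Nx-HPi-Hp and 0.234, 0.290, 0.278 and 0.0313 in 5/6 Nx-LPi-Lp. Replicate 1 of 5/6 Nx-HPi-Lp lay within the range of each other group, and the other 3 lay above all of them. Top2a rose on the log2 scale by 2.10 ± 0.61 (adjusted p = 0.0199), 2.48 ± 0.59 (adjusted p = 0.0249) and 2.79 ± 0.74 (adjusted p = 0.0292), and these calls were lost without Sham replicate 1, 2 or 3 (adjusted p of 0.0527 to 0.0633), in 5 of 8 fits against 5/6 Nx-HPi-Hp (0.0553 to 0.0777) and in 5 of 8 against 5/6 Nx-LPi-Lp (0.0563 to 0.0655). The spindle assembly genes Nusap1 and Tpx2 rose against Sham by 1.74 ± 0.29 (adjusted p = 0.00116) and 1.56 ± 0.41 (adjusted p = 0.012) and against 5/6 Nx-LPi-Lp by 1.97 ± 0.34 (adjusted p = 0.00541) and 2.02 ± 0.48 (adjusted p = 0.019).

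Centromere genes gave mixed values at low counts. Cenpa, the centromeric histone, rose on the log2 scale by 1.55 ± 0.46 (adjusted p = 0.0211) against Sham, a call lost without Sham replicate 1, 2 or 3 or 5/6 Nx-HPi-Lp replicate 2 or 3 (adjusted p of 0.051 to 0.0654), and had a log2 fold change of 0.59 ± 0.46 (adjusted p = 0.417) against 5/6 Nx-HPi-Hp and 1.32 ± 0.56 (adjusted p = 0.122) against 5/6 Nx-LPi-Lp. Cenpf, a kinetochore protein, was at 0 in 5/6 Nx-HPi-Lp replicate 1 and at 0.312, 0.186 and 0.273 FPKM in the others, with a log2 fold change against Sham of 2.46 ± 0.93 (adjusted p = 0.0557). Hmmr, a spindle matrix gene, was also at 0 in replicate 1, and its rise of 3.24 ± 1.02 (adjusted p = 0.0281) against Sham was lost in 6 of 8 fits, with an adjusted p of up to 0.0866. Prc1, which bundles midzone microtubules, had a log2 fold change of 1.07 ± 0.42 (adjusted p = 0.0671) against Sham and rose on the log2 scale by 1.68 ± 0.47 (adjusted p = 0.0344) against 5/6 Nx-LPi-Lp, a call lost in 6 of 8 fits (adjusted p of 0.0581 to 0.0861).

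Anln, anillin of the contractile ring, went the other way. It was at 5.66, 6.59, 4.49 and 6.36 FPKM in Sham and 2.43, 2.84, 3.27 and 2.29 FPKM in 5/6 Nx-HPi-Lp. It was at 1.44, 1.29, 1.09 and 4.25 FPKM in 5/6 Nx-HPi-Hp and 1.06, 1.58, 2.32 and 2.85 FPKM in 5/6 Nx-LPi-Lp. All 12 nephrectomized libraries lay below all 4 Sham libraries. On the log2 scale, Anln fell by 1.12 ± 0.16 (adjusted p = 0.000419) against Sham, and this held with any 1 library left out. Between 5/6 Nx-HPi-Lp and the other nephrectomized groups its log2 fold change was 0.41 ± 0.41 (adjusted p = 0.521) and 0.47 ± 0.29 (adjusted p = 0.272). In Sham its level of 5.78 ± 0.947 FPKM was above that of every other member outside licensing and the fork.

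Origin licensing and fork genes had lower median fold changes than the mitotic genes. Of these 12 genes, 4 rose against Sham (Cdc6, Cdt1, Cdc45 and Dbf4, median log2 fold change of the list 0.69), 3 against 5/6 Nx-HPi-Hp (Mcm4, Cdt1 and Dbf4, 0.79) and 5 against 5/6 Nx-LPi-Lp (Mcm3, Mcm4, Cdt1, Gins2 and Dbf4, 0.91). Their summed level was 161, 172, 172 and 176 CPM in Sham and 148, 219, 200 and 177 CPM in 5/6 Nx-HPi-Lp. It was 111 to 136 CPM in 5/6 Nx-HPi-Hp and 120 to 136 CPM in 5/6 Nx-LPi-Lp. The 5/6 Nx-HPi-Lp libraries overlapped Sham and lay above the other nephrectomized groups. Against Sham, 2 of these genes were called without Sham replicate 1. Against 5/6 Nx-HPi-Hp, 1 was called without 5/6 Nx-HPi-Lp replicate 2 or 4 or 5/6 Nx-HPi-Hp replicate 2, 3 or 4, and against 5/6 Nx-LPi-Lp 2 were called without 5/6 Nx-HPi-Lp replicate 2, while 3 were called without 5/6 Nx-LPi-Lp replicate 2, 3 or 4.

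Cdt1, which loads the MCM helicase onto origins, was the member of this role with the tightest 5/6 Nx-HPi-Lp values. It was at 0.808, 1.18, 1.18 and 1.36 FPKM in Sham, 2.45, 2.89, 2.44 and 2.37 in 5/6 Nx-HPi-Lp, 1.53, 1.27, 1.12 and 0.828 in 5/6 Nx-HPi-Hp and 0.903, 1.06, 0.915 and 0.779 in 5/6 Nx-LPi-Lp. The 4 5/6 Nx-HPi-Lp libraries lay above all 12 others. Cdt1 rose on the log2 scale by 1.13 ± 0.22 (adjusted p = 0.00234), 1.10 ± 0.27 (adjusted p = 0.0298) and 1.48 ± 0.23 (adjusted p = 0.00378), and without Sham replicate 1 the first of these was 0.99, just under the fold threshold. The call against 5/6 Nx-HPi-Hp was lost in 6 of 8 fits, with an adjusted p of up to 0.0767. Cdc6, its partner in helicase loading, rose on the log2 scale by 1.61 ± 0.45 (adjusted p = 0.0164) against Sham, a call lost without Sham replicate 1, 2 or 4 (adjusted p of 0.0536 to 0.0558). Dbf4, the activating subunit of the Cdc7 kinase, was at 0.114, 0.177, 0.197 and 0.197 FPKM in Sham and 0.178, 1.29, 0.621 and 1.04 FPKM in 5/6 Nx-HPi-Lp, and rose on the log2 scale by 2.17 ± 0.52 (adjusted p = 0.00814), 2.33 ± 0.57 (adjusted p = 0.0276) and 1.97 ± 0.53 (adjusted p = 0.0306). The calls of Dbf4 against 5/6 Nx-HPi-Hp or 5/6 Nx-LPi-Lp were lost in 6 of 8 fits each, with adjusted p up to 0.0835 and 0.0802.

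The subunits of the MCM helicase differed in direction against Sham. Mcm4 was at 3.61, 3.70, 4.05 and 4.05 FPKM in Sham, 4.27, 5.41, 4.19 and 3.90 in 5/6 Nx-HPi-Lp, 2.25, 1.49, 1.06 and 1.75 in 5/6 Nx-HPi-Hp and 2.29, 2.15, 2.48 and 1.77 in 5/6 Nx-LPi-Lp. It had a log2 fold change of 0.18 ± 0.13 (adjusted p = 0.319) against Sham, and rose on the log2 scale by 1.43 ± 0.26 (adjusted p = 0.00991) against 5/6 Nx-HPi-Hp and 1.03 ± 0.18 (adjusted p = 0.00637) against 5/6 Nx-LPi-Lp, the last at 0.91 and 0.97 without 5/6 Nx-HPi-Lp replicate 2 or 5/6 Nx-LPi-Lp replicate 4. Mcm6 was at 11.4, 11.8, 11.1 and 12.1 FPKM in Sham, 6.38, 7.63, 8.70 and 5.39 in 5/6 Nx-HPi-Lp, 5.87, 8.28, 4.09 and 11.4 in 5/6 Nx-HPi-Hp and 4.76, 6.72, 7.12 and 9.83 in 5/6 Nx-LPi-Lp. All 4 5/6 Nx-HPi-Lp libraries lay below Sham, at -0.75 ± 0.14 (adjusted p = 0.0022), which passed the adjusted p but not the fold threshold. Against 5/6 Nx-HPi-Hp, and then against 5/6 Nx-LPi-Lp, its log2 fold changes were -0.09 ± 0.30 and -0.02 ± 0.23, and their signs turned under other settings. Mcm7 passed the adjusted p alone against Sham, at 0.47 ± 0.12 (adjusted p = 0.0114). Mcm3 had a log2 fold change of 0.60 ± 0.23 (adjusted p = 0.0555) against Sham and rose on the log2 scale by 1.06 ± 0.25 (adjusted p = 0.0197) against 5/6 Nx-LPi-Lp, a call lost without 5/6 Nx-HPi-Lp replicate 2 or 3 or 5/6 Nx-LPi-Lp replicate 2 or 3 (log2 fold changes of 0.85 to 1.05, adjusted p up to 0.0528). Mcm2 and Mcm5 had a log2 fold change of 0.30 ± 0.20 (adjusted p = 0.261) and 0.79 ± 0.30 (adjusted p = 0.0599) against Sham.

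Of the genes of the working fork, Pcna was called in none of the 3 comparisons, Cdc45 against Sham and Gins2 against 5/6 Nx-LPi-Lp. Pcna, the sliding clamp of the polymerases, was the most abundant member, at 14.3, 15.95, 16.2 and 15.4 FPKM in Sham, 11.8, 21.6, 19.5 and 18.9 in 5/6 Nx-HPi-Lp, 10.4, 10.8, 10.5 and 11.2 in 5/6 Nx-HPi-Hp and 11.7, 12.7, 9.97 and 11.6 in 5/6 Nx-LPi-Lp. Replicate 1 of 5/6 Nx-HPi-Lp was below all Sham libraries and the other 3 above them. Its log2 fold change was 0.19 ± 0.17 (adjusted p = 0.392) against Sham, 0.75 ± 0.19 (adjusted p = 0.0317) against 5/6 Nx-HPi-Hp and 0.65 ± 0.19 (adjusted p = 0.0405) against 5/6 Nx-LPi-Lp, under the fold threshold in each. Cdc45, a helicase cofactor, rose on the log2 scale by 1.17 ± 0.29 (adjusted p = 0.0093) against Sham, with a fold change of 0.96 without 5/6 Nx-HPi-Lp replicate 4. Gins2, of the same helicase, had a log2 fold change of 0.94 ± 0.26 (adjusted p = 0.0169) against Sham and rose on the log2 scale by 1.30 ± 0.31 (adjusted p = 0.0192) against 5/6 Nx-LPi-Lp.

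Read by promoter letters, the 18 members whose windows held both TTTGAA and CCAAT, as in Ccnb2 and Cdk1 above, had a median log2 fold change against Sham of 2.18, and the 21 other members with a window had one of 1.72. The 6 members with TTTCCCGC or TTTGGCGC, all of licensing and the fork, had a median of 0.69, from -0.75 for Mcm6 to 1.61 for Cdc6. The 33 without these letters had one of 2.10, and they may hold other forms of the E2F motif, which were not searched. These medians follow the roles of the genes and are a description only.

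**Figure D4:**
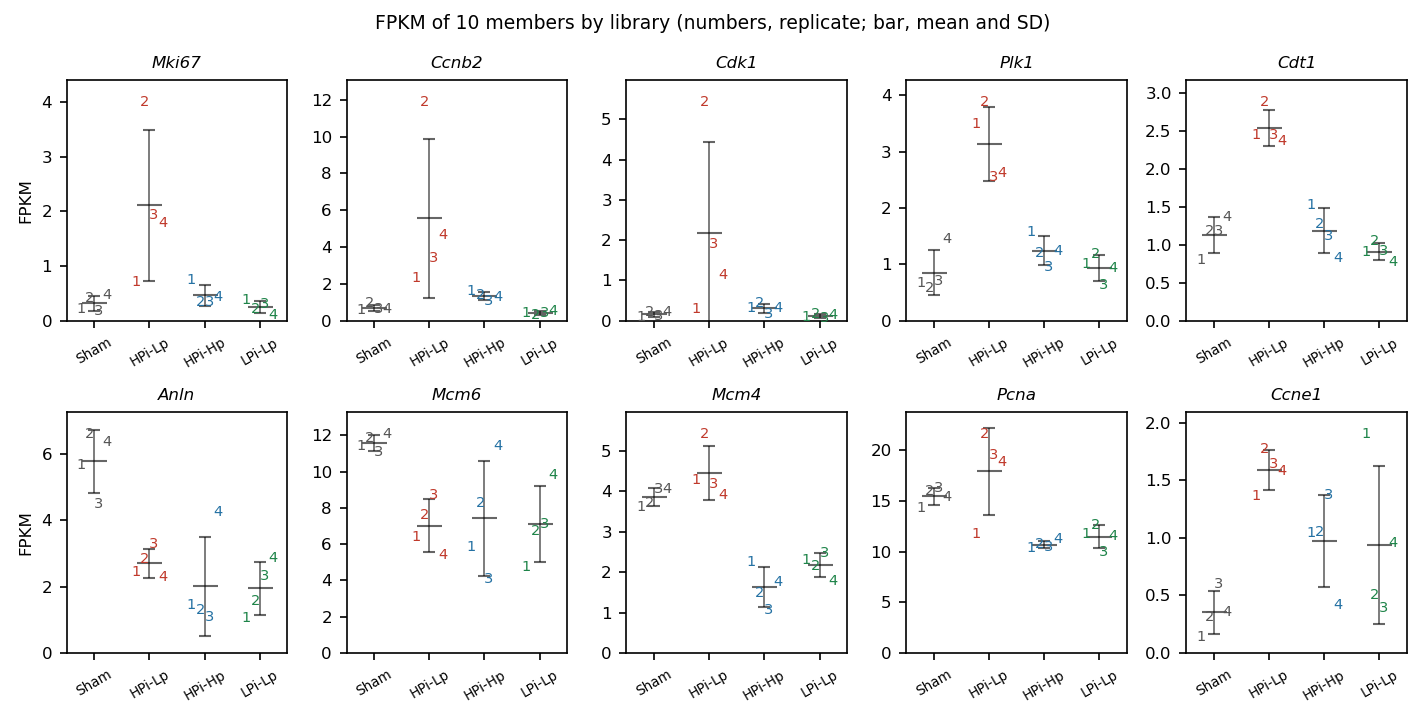
FPKM of 10 members (panels) in each library (points), by group, with the group mean. Ccnb2, Plk1 and Cdt1 of 5/6 Nx-HPi-Lp lie above all other libraries, Anln and Mcm6 of Sham lie above the 5/6 Nx-HPi-Lp libraries, and Mcm4 of 5/6 Nx-HPi-Lp and Sham overlap above the other 2 groups.

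Of the 3 enzymes of deoxynucleotide supply, Rrm2 was called and Rrm1 and Tyms were not. Rrm2, the small subunit of ribonucleotide reductase, was at 0.504, 0.875, 0.745 and 1.05 FPKM in Sham, 0.770, 6.07, 2.82 and 0.935 in 5/6 Nx-HPi-Lp, 0.482, 0.368, 0.422 and 0.306 in 5/6 Nx-HPi-Hp and 0.903, 0.483, 0.797 and 0.357 in 5/6 Nx-LPi-Lp. Replicates 2 and 3 of 5/6 Nx-HPi-Lp lay above all other libraries. Rrm2 rose on the log2 scale by 1.72 ± 0.61 (adjusted p = 0.044) against Sham and 2.75 ± 0.65 (adjusted p = 0.0252) against 5/6 Nx-HPi-Hp, and had a log2 fold change of 2.09 ± 0.67 (adjusted p = 0.0545) against 5/6 Nx-LPi-Lp. The first call was lost in 6 of 8 fits with 1 library left out, with 0.95 (adjusted p = 0.144) without 5/6 Nx-HPi-Lp replicate 2, and the second in 5 of 8, with 1.95 (adjusted p = 0.0627) without that library. Rrm1, the large subunit, had a log2 fold change of 0.38 ± 0.17 (adjusted p = 0.0924) against Sham and 0.80 ± 0.18 (adjusted p = 0.0226) against 5/6 Nx-HPi-Hp, and Tyms, thymidylate synthase, had a log2 fold change of 0.91 ± 0.39 (adjusted p = 0.0903) against Sham.

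Of the 5 G1/S cyclins and cell cycle transcription factors, 4 rose against Sham. Ccne1, cyclin E1, was at 0.138, 0.314, 0.598 and 0.359 FPKM in Sham, 1.36, 1.78, 1.65 and 1.58 in 5/6 Nx-HPi-Lp, 1.04, 1.05, 1.38 and 0.419 in 5/6 Nx-HPi-Hp and 1.90, 0.503, 0.387 and 0.954 in 5/6 Nx-LPi-Lp. The 5/6 Nx-HPi-Lp libraries lay above all Sham libraries and within the range of 5/6 Nx-LPi-Lp, whose replicate 1 was the highest of all 16. Ccne1 rose on the log2 scale by 2.15 ± 0.41 (adjusted p = 0.0024) against Sham and had a log2 fold change of 0.72 ± 0.39 (adjusted p = 0.239) against 5/6 Nx-HPi-Hp and 0.76 ± 0.48 (adjusted p = 0.284) against 5/6 Nx-LPi-Lp. Ccne2, cyclin E2, had a log2 fold change of -0.02 ± 0.36 (adjusted p = 0.977) against Sham, with a sign that turned under other settings. Mybl2, which encodes B-Myb, was at 0.294, 0.217, 0.297 and 0.339 FPKM in Sham and 0.712, 1.62, 1.44 and 0.671 FPKM in 5/6 Nx-HPi-Lp, and rose on the log2 scale by 1.93 ± 0.36 (adjusted p = 0.00221) against Sham and 1.36 ± 0.38 (adjusted p = 0.033) against 5/6 Nx-LPi-Lp, with a log2 fold change of 0.71 ± 0.46 (adjusted p = 0.322) against 5/6 Nx-HPi-Hp.

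Transcription factors E2f1 and Foxm1 split the 5/6 Nx-HPi-Lp libraries. E2f1, an activator of S phase genes, was at 0.472, 4.97, 3.27 and 2.46 FPKM in 5/6 Nx-HPi-Lp, with replicate 1 below and the others above the Sham values of 0.874, 0.928, 0.805 and 0.631 FPKM. It rose on the log2 scale by 1.76 ± 0.54 (adjusted p = 0.0246) against Sham and 2.24 ± 0.59 (adjusted p = 0.0274) against 5/6 Nx-LPi-Lp. Foxm1, which drives genes of mitosis, was at 0.236, 2.40, 1.39 and 0.777 FPKM in 5/6 Nx-HPi-Lp and 0.236, 0.407, 0.359 and 0.339 FPKM in Sham, rose on the log2 scale by 1.82 ± 0.57 (adjusted p = 0.0263), and had a log2 fold change of 2.05 ± 0.64 (adjusted p = 0.0502) against 5/6 Nx-LPi-Lp. The calls of E2f1 and Foxm1 against Sham were each lost in 6 of 8 fits, with adjusted p up to 0.0737 and 0.0797, and without Sham replicate 1, 2, 3 or 4 or 5/6 Nx-HPi-Lp replicate 2 or 3 only 2 genes of this role were called. Against 5/6 Nx-LPi-Lp, no gene of this role was called without 5/6 Nx-HPi-Lp replicate 2 or 3 or any 1 of the 5/6 Nx-LPi-Lp libraries, and 1 was called without 5/6 Nx-HPi-Lp replicate 4. Lmnb1, lamin B1 of the nuclear lamina, which falls in senescent cells, was at 2.25, 2.55, 1.95 and 2.08 FPKM in Sham and 1.99, 5.01, 5.79 and 2.78 FPKM in 5/6 Nx-HPi-Lp, with 0.80 ± 0.31 (adjusted p = 0.0654) against Sham. It rose on the log2 scale by 1.23 ± 0.37 (adjusted p = 0.0425) against 5/6 Nx-LPi-Lp, a call lost in 7 of 8 fits (adjusted p of 0.0539 to 0.106).

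Markers of macrophages and fibroblasts also had higher sums in 5/6 Nx-HPi-Lp, and those of smooth muscle lower ones. The 6 macrophage markers rose in 5/6 Nx-HPi-Lp against each of the 3 other groups. Of all genes, 15.0%, 5.01% and 7.90% rose against Sham, against 5/6 Nx-HPi-Hp and against 5/6 Nx-LPi-Lp, and 7.18%, 3.11% and 3.98% fell. Against 5/6 Nx-HPi-Hp the calls of Cd68 and Csf1r held only without 5/6 Nx-HPi-Lp replicate 1 among the 8 fits, with adjusted p up to 0.106 and 0.0983. The sum of these markers was 190 to 294 CPM in Sham, 622, 2191, 1334 and 1146 CPM in 5/6 Nx-HPi-Lp, 258 to 515 in 5/6 Nx-HPi-Hp and 182 to 311 in 5/6 Nx-LPi-Lp, and none was at 0 in any library. Of 6 fibroblast markers, 3 rose against Sham, 5 against 5/6 Nx-HPi-Hp and 5 against 5/6 Nx-LPi-Lp, and none was at 0. Their sum was 1783 to 2764 CPM in Sham, 2834, 12124, 5232 and 5046 CPM in 5/6 Nx-HPi-Lp, 1026 to 2795 CPM in 5/6 Nx-HPi-Hp and 1109 to 1470 CPM in 5/6 Nx-LPi-Lp. Of 6 smooth muscle markers, 6, 5 and 6 fell, with sums of 6540 to 23205 CPM in 5/6 Nx-HPi-Hp and 7597 to 17667 CPM in 5/6 Nx-LPi-Lp. Replicate 2 of 5/6 Nx-HPi-Lp had the highest and replicate 1 the lowest sum of macrophage and fibroblast markers in its group, as they had for the mitotic regulators. The order in Sham was another one. There, replicate 4 had the lowest macrophage and fibroblast sums (190 and 1783 CPM) and the highest sum of mitotic regulators (21.2 CPM). The part of these cell types in the cell cycle values was not tested.

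Markers of blood, immune, endothelial and fat cells were checked in the same way, beside the same shares of all genes (against Sham, 15.0% rose and 7.18% fell). Of 3 neutrophil and myeloid progenitor markers tested, 3, 2 and 2 rose against Sham, against 5/6 Nx-HPi-Hp and against 5/6 Nx-LPi-Lp, with sums of 0.633 to 4.39 CPM in Sham, 14.8 to 30.8 CPM in 5/6 Nx-HPi-Lp, 0.656 to 5.00 CPM in 5/6 Nx-HPi-Hp and 0.762 to 1.68 CPM in 5/6 Nx-LPi-Lp. Ly6g was at 0 in all 4 5/6 Nx-HPi-Lp libraries and Mpo in 3. Of 4 thymocyte markers tested, 3 fell against Sham, with sums of 7.67 to 46.0 CPM in Sham and 0.927 to 5.41 CPM in 5/6 Nx-HPi-Lp, and Rag2 and Ptcra were at 0 in all 4 5/6 Nx-HPi-Lp libraries. Of 6 T cell markers 2 fell against Sham, with sums of 8.79 to 54.8 and 4.31 to 10.3 CPM, and of 5 B cell markers tested 1 rose, with sums of 4.06 to 19.2 and 11.6 to 41.6 CPM. Of the erythroid genes Alas2, Epor, Hba-a1 and Hbb-bs, 3 fell against Sham on the log2 scale, Alas2 by 2.49 ± 0.69 (adjusted p = 0.0159), Hbb-bs by 2.44 ± 0.67 (adjusted p = 0.0154) and Hba-a1 by 2.07 ± 0.70 (adjusted p = 0.0381), the last a call that held in 2 of 8 fits with 1 library left out. Epor went the other way, at 1.38 ± 0.70 (adjusted p = 0.14), and was not called. Klf1 was too low to be tested, at a mean of 0.269 FPKM in 5/6 Nx-HPi-Lp and 0.0833 FPKM in Sham. The globin genes Hba-a1 and Hbb-bs and Alas2, of heme synthesis, were at 176 to 1992, 157 to 1535 and 5.06 to 53.4 CPM in Sham and at 98.1 to 193, 63.8 to 146 and 3.03 to 3.95 CPM in 5/6 Nx-HPi-Lp. Hba-a1 and Hbb-bs rose against 5/6 Nx-LPi-Lp by 1.09 ± 0.31 (adjusted p = 0.0374) and 1.04 ± 0.32 (adjusted p = 0.0494), calls that held in 2 and 1 of 8 such fits. Of 6 markers each, 5 white adipocyte, 3 brown adipocyte and 2 endothelial markers rose against Sham, and against 5/6 Nx-HPi-Hp 0, 1 and 0 of them did. Against 5/6 Nx-LPi-Lp 1, 1 and 0 rose and 1 brown adipocyte marker fell. The white adipocyte sum was 209 to 566 CPM in Sham and 1490 to 2688 CPM in 5/6 Nx-HPi-Lp, with 566 to 3665 CPM in 5/6 Nx-HPi-Hp and 1206 to 3486 CPM in 5/6 Nx-LPi-Lp. The brown adipocyte sum was 363 to 716 CPM in Sham, 634 to 2091 CPM in 5/6 Nx-HPi-Lp, 795 to 2739 CPM in 5/6 Nx-HPi-Hp and 1372 to 4887 CPM in 5/6 Nx-LPi-Lp, so that for both lists 5/6 Nx-HPi-Lp overlapped the other nephrectomized groups. The endothelial sum was 683 to 1037 CPM in Sham and 762 to 949 CPM in 5/6 Nx-HPi-Lp. The part of these cell types was not tested.

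**Figure D5:**
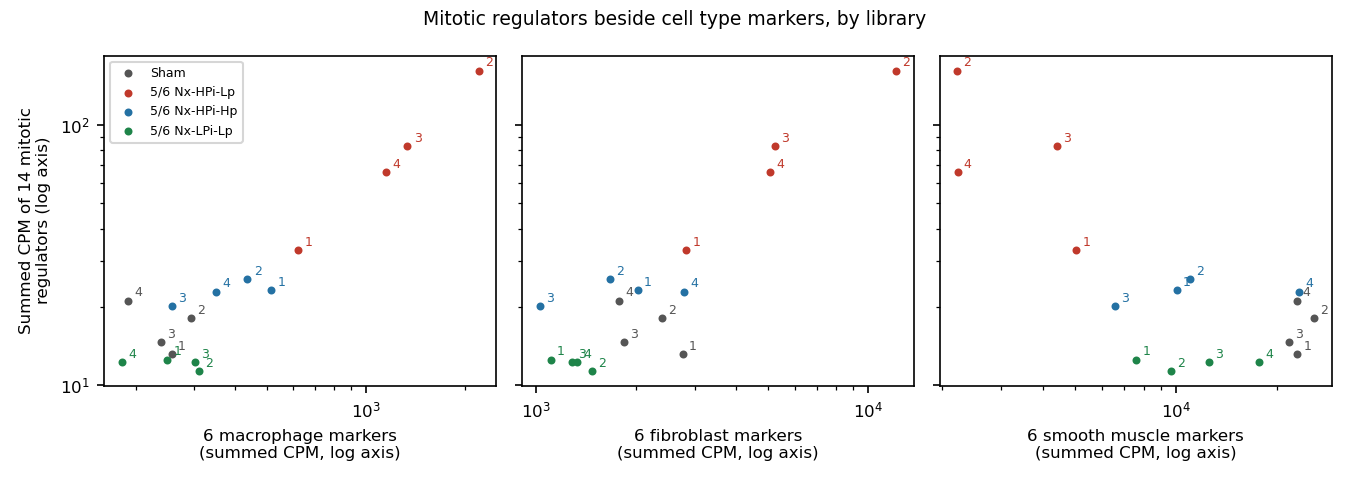
Summed CPM of the 14 mitotic regulators (vertical, log axis) against the summed CPM of 6 macrophage, 6 fibroblast and 6 smooth muscle markers (horizontal, log axes, 3 panels) in the 16 libraries, by group. The 5/6 Nx-HPi-Lp libraries lie at 622 to 2191 CPM of macrophage markers and 33.0 to 162 CPM of mitotic regulators, above the other groups on both axes, and at 2223 to 5034 CPM of smooth muscle markers, below them.

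Few members were called between the other nephrectomized groups and Sham. In 5/6 Nx-HPi-Hp against Sham, 2 of 44 members tested rose and 3 fell, while 9.41% of all genes rose and 2.75% fell, and the median log2 fold change was 0.18 against 0.02 for all genes. On the log2 scale, Mcm4 fell by 1.23 ± 0.22 (adjusted p = 0.00956), Anln fell by 1.51 ± 0.39 (adjusted p = 0.02) and Rrm2 fell by 1.01 ± 0.34 (adjusted p = 0.0476). Mybl2 rose on the log2 scale by 1.23 ± 0.39 (adjusted p = 0.0384) and Ccne1 by 1.45 ± 0.50 (adjusted p = 0.0485). The call of Mcm4 held with any 1 library left out, and that of Anln was lost without Sham replicate 2 or 5/6 Nx-HPi-Hp replicate 1 or 2 (adjusted p of 0.0519 to 0.0534). Without 5/6 Nx-HPi-Hp replicate 4 the Anln fold change was -2.19. The calls of Rrm2, Mybl2 and Ccne1 were lost in 8, 7 and 6 of the 8 fits, with adjusted p up to 0.131, 0.111 and 0.123. With no fold threshold 10 members passed, as did 31.4% of all genes, and the log2 fold changes of Pcna, Rrm1, Ccnb2, E2f1 and Cenpa were -0.54, -0.40, 0.92, 0.94 and 0.99, under the fold threshold, with adjusted p of 0.00987, 0.0397, 0.0499, 0.0396 and 0.0144. All 4 5/6 Nx-HPi-Hp libraries lay above all 4 of Sham for 5 members, as for 15.8% of all genes, and below them for 5, as for 17.5%. The fold changes of Bub1, Ttk, Nek2 and Hmmr were not tested at their counts of 10 to 35 per group. With all genes scaled by their total counts, 0 members rose and 3 fell. The counts called were 2, 1 and 3 without Sham replicates 1, 2 and 3, and 2, 1 and 3 without 5/6 Nx-HPi-Hp replicates 1, 2 and 3.

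Anln was also the member that fell in the low-phosphorus group. In 5/6 Nx-LPi-Lp against Sham, 0 of 43 members tested rose in edgeR's test, with 1 higher in DESeq2 and 0 in limma, and 1 fell, while 8.79% of all genes rose and 2.08% fell. An unadjusted p under 0.05 was found for 9 of 43 members and for 7019 of 16071 genes in all. The median log2 fold change was -0.32 against 0.02 for all genes. Anln fell by 1.54 ± 0.28 (adjusted p = 0.00435), a call held with any 1 library left out, and 2 members were called without 5/6 Nx-LPi-Lp replicate 3. The log2 fold changes of Mcm4, Mcm6, Mcm3 and Pcna were -0.81, -0.69, -0.42 and -0.41, under the fold threshold, with adjusted p of 0.00361, 0.0221, 0.0344 and 0.014. All 4 5/6 Nx-LPi-Lp libraries lay below all 4 of Sham for 8 members, as for 17.9% of all genes, and above them for 1, Mybl2, as for 16.1%. The highest log2 fold change was that of Ccne1, 1.43 ± 0.56 (adjusted p = 0.0757).

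Between the groups that differed in protein and phosphorus at once, no member passed. In 5/6 Nx-HPi-Hp against 5/6 Nx-LPi-Lp, 0 of 43 members tested were called by edgeR (0.00% of all genes), and DESeq2 and limma called 0 members. An unadjusted p under 0.05 was found for 8 members and for 1420 of 15850 genes in all. Bub1, Ttk, Nek2, Cenpf and Hmmr were too low to be tested. The median log2 fold change was 0.37 against -0.00 for all genes. The highest log2 fold change was 1.91 ± 0.54 (adjusted p = 0.492) for Ube2c and the lowest -0.69 ± 0.41 (adjusted p = 0.599) for Rrm2. All 4 5/6 Nx-HPi-Hp libraries lay above all 4 of 5/6 Nx-LPi-Lp for 7 members, as for 2.49% of all genes, and these were Ccnb2, Ccna2, Cdk1, Ube2c, Gins2, Tyms and E2f1.

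Further genes of the cell cycle, 75 in all, were listed by function and read beside the members. Of 25 other mitosis genes, 19 rose and 1 fell against Sham, where 15.0% and 7.18% of all genes did. Against 5/6 Nx-HPi-Hp 4 of 23 tested rose, as did 5.01% of all genes, and against 5/6 Nx-LPi-Lp 12 of 20, as did 7.90%. Nuf2 of the kinetochore rose on the log2 scale by 3.78 ± 0.78 (adjusted p = 0.00358) against Sham, Cep55 of abscission by 3.12 ± 0.82 (adjusted p = 0.0353) against 5/6 Nx-HPi-Hp and the chromokinesin Kif4 by 4.58 ± 0.93 (adjusted p = 0.0107) against 5/6 Nx-LPi-Lp. Leaving out 5/6 Nx-HPi-Lp replicate 2 gave a Nuf2 fold change of 3.10, leaving out Sham replicate 4 gave 4.39, and that of Kif4 was 5.49 without 5/6 Nx-LPi-Lp replicate 3. Without 5/6 Nx-HPi-Lp replicate 1, 10 of these genes were called against 5/6 Nx-HPi-Hp and 20 against 5/6 Nx-LPi-Lp, and without its replicate 2 they were 1 and 7. The call of Cep55 was lost in 7 of 8 fits, with adjusted p up to 0.0938. Pttg1, securin, was at 25.8, 26.2, 26.1 and 31.9 FPKM in Sham and 16.5, 11.5, 13.4 and 14.1 FPKM in 5/6 Nx-HPi-Lp. On the log2 scale, it fell by 1.02 ± 0.13 (adjusted p = 0.00029) against Sham, and this fold change was under 1 in size without Sham replicate 4 (-0.96), without 5/6 Nx-HPi-Lp replicate 2 (-0.92) or without 5/6 Nx-HPi-Lp replicate 3.

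Of 25 other replication genes, 10 of 24 tested rose and 1 fell against Sham, where 15.0% and 7.18% of all genes did. Against 5/6 Nx-HPi-Hp 1 of 24 rose, as did 5.01% of all genes, and against 5/6 Nx-LPi-Lp 4 of 23, as did 7.90%. Without Sham replicate 1, 6 were called higher than Sham, and against 5/6 Nx-LPi-Lp 7 were called when 5/6 Nx-HPi-Lp replicate 1 was left out and 2 when its replicate 2 or 4 or 5/6 Nx-LPi-Lp replicate 3 was. Exo1, an exonuclease of repair and replication, rose on the log2 scale by 3.58 ± 0.66 (adjusted p = 0.00207) against Sham and had 189 counts in 5/6 Nx-HPi-Lp and 0 in all 4 libraries of 5/6 Nx-LPi-Lp. Pole, the leading strand polymerase, was at 0.458, 0.768, 0.454 and 0.476 FPKM in 5/6 Nx-HPi-Lp and 0.182, 0.335, 0.147 and 0.119 FPKM in 5/6 Nx-HPi-Hp, and its rise of 1.47 ± 0.40 (adjusted p = 0.0389) was lost in 6 of 8 fits (adjusted p of 0.0647 to 0.1). Gmnn, geminin, the inhibitor of Cdt1, was at 1.66, 1.71, 2.12 and 2.93 FPKM in Sham, 4.37, 9.17, 9.47 and 7.82 in 5/6 Nx-HPi-Lp, 7.76, 5.85, 8.84 and 3.01 in 5/6 Nx-HPi-Hp and 9.30, 8.27, 4.58 and 2.70 in 5/6 Nx-LPi-Lp. It rose on the log2 scale by 1.85 ± 0.29 (adjusted p = 0.000893), 1.59 ± 0.34 (adjusted p = 0.0119) and 1.57 ± 0.38 (adjusted p = 0.0127) against Sham in these 3 groups, each call held with any 1 library left out.

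Pola1, the catalytic subunit of DNA polymerase alpha, was at 0.838, 1.06, 1.07 and 1.29 FPKM in Sham, 0.587, 0.266, 0.642 and 0.514 in 5/6 Nx-HPi-Lp, 0.267, 0.337, 0.451 and 0.518 in 5/6 Nx-HPi-Hp and 0.353, 0.412, 0.719 and 0.544 in 5/6 Nx-LPi-Lp. On the log2 scale, it fell by 1.12 ± 0.29 (adjusted p = 0.0115) in 5/6 Nx-HPi-Lp, which was -0.88 without 5/6 Nx-HPi-Lp replicate 2. It fell by 1.44 ± 0.25 (adjusted p = 0.0094) in 5/6 Nx-HPi-Hp, and it fell by 1.06 ± 0.24 (adjusted p = 0.0109) in 5/6 Nx-LPi-Lp, which was -0.96, -0.92 and -0.98 without Sham replicate 4 or 5/6 Nx-LPi-Lp replicate 1 or 2. Gmnn and Pola1 were the 2 genes of these 25 called in 5/6 Nx-HPi-Hp and in 5/6 Nx-LPi-Lp against Sham, with 22 tested in each. Of all genes, 12.2% and 10.9% were called there. Of the other mitosis genes, 0 of 15 tested were called in 5/6 Nx-HPi-Hp and 0 of 13 in 5/6 Nx-LPi-Lp against Sham by edgeR. Of these, 3 and 3 had an unadjusted p under 0.05, as did 7224 of 15882 and 7019 of 16071 genes in all.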

How the data were processed

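Poly-A RNA of 16 mouse aortas, 4 in each of 4 groups, was sequenced. Per the labels and methods, the authors mapped reads to mm10 (HISAT2), used featureCounts 1.5.0-p3 for gene counts, and deposited raw counts and FPKM for 54532 genes. The deposited FPKM values already carried a scaling between libraries. Strand use and the handling of reads with several matches in counting are not given in the sources used here, so reads shared by a gene and a near copy or antisense partner cannot be told apart. Groups came from the labels, and all value columns were mapped to a sample (0 unused).

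Counts were tested with edgeR 4.0.16 in R 4.3.3 (filterByExpr, TMM scaling, quasi-likelihood test, two-sided) on the 8 libraries of each of 6 pairs of groups, with Benjamini-Hochberg adjustment over all genes tested. A call needed an adjusted p no higher than 0.05 and a log2 fold change of 1 or more in size. CPM values used total counts with TMM scaling between libraries. The fits were first tested on simulated counts. Alternatives were other scalings, DESeq2 1.42.0, limma 3.58.1 on the log2 scale with 1 or 0.1 added to the deposited FPKM (mean above 0.5 FPKM), other count filters, a replicate block, a joint fit of the 16 libraries, libraries thinned to the lowest total of 13659525 counts, and each library left out. A fit on 5/6 Nx-HPi-Lp replicates 1 and 4 without the 2 deeper libraries was chosen after seeing the data. Totals of 13659525 to 57276915 counts limit the low genes, and intervals and values at 0 cover counting error only.

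Members, gene lists, marker lists and tests were chosen with earlier results of these data known. Genes were named by rule: members fixed for their role, all called members of a comparison or the 10 with the smallest adjusted p, the highest and lowest fold change, and, of the 75 further genes, the largest change in each direction per list with Cdkn1a, Ccnd1 and Cdk4. Members beyond this rule were named to account for all 48. Replicate pairs within groups differed by more than counting noise, so each library was counted as 1 sample. The value of 1 marker gene, with the sum of its list, is not reported here.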

Additional observations from a re-analysis of the deposited data

Results flagged for a closer look

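In 14 of 212 groups of 4 values, 1 library stood far from the other 3, where its gap to the nearest, as a share of the whole range, passed Dixon's 95% critical value for 4 samples. Chance flags about 1 in 20 groups, and none of these values was left out. Sham replicate 4 was high for Ube2c (0.795 FPKM, the others 0.314 to 0.370) and Plk1 (1.44 FPKM, the others 0.589 to 0.705). This library also had the highest sum of thymocyte markers in Sham, 46.0 CPM, and the part of those cells was not tested. Sham replicate 2 was high for Ccnb2 (0.956 FPKM), Sham replicate 3 for Cdc6 (0.272 FPKM), and Sham replicate 1 was low for Cenpe (0.0597 FPKM). In 5/6 Nx-HPi-Lp, replicate 2 was high for Ttk (0.983 FPKM, the others 0.118 to 0.184) and Cdt1 (2.89 FPKM, the others 2.37 to 2.45). In 5/6 Nx-HPi-Hp, replicate 4 was high for Anln (4.25 FPKM, the others 1.09 to 1.44), the library with the highest smooth muscle marker sum of its group, 23205 CPM, and replicate 2 for Ube2c (1.53 FPKM). In 5/6 Nx-LPi-Lp, replicate 4 was high for Bub1b (0.715 FPKM) and for the summed licensing and fork genes (136 CPM, the others 120 to 122), replicate 2 for Prc1 (0.263 FPKM) and Nek2 (0.0141 FPKM from 1 count, the others at 0), and replicate 3 for Ccne2 (0.717 FPKM).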

How the results depend on the processing

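The counts of members called moved with the test's treatment of low values, with the replicate block and with single libraries. In the order 5/6 Nx-HPi-Lp against Sham, against 5/6 Nx-HPi-Hp and against 5/6 Nx-LPi-Lp, then 5/6 Nx-HPi-Hp against Sham, the main counts were 33, 13, 30 and 5. limma on log2(FPKM + 1) called 7, 2, 7 and 1, and limma on log2(FPKM + 0.1) called 19, 8, 16 and 2, where 38 members passed its filter in the first 3 comparisons and 26 in the last. Against 5/6 Nx-HPi-Hp, DESeq2 called 23 and a fit of all 16 libraries 24. In 5/6 Nx-HPi-Hp against Sham, 3 were called with total-count scaling, 2 with no count filter and 10 with no fold threshold. In 5/6 Nx-LPi-Lp against Sham, where 1 was called, total-count scaling and DESeq2 each called 3, no count filter, all 16 libraries and thinning each called 2, and no fold threshold 5. 5/6 Nx-HPi-Lp replicates 1 and 4 without the deeper pair, a choice made after seeing the data, gave 19, 0 and 11 calls in the first 3 comparisons, and in the second of these 12 members had an unadjusted p under 0.05. With 1 library left out, the counts ranged from 23 to 39, 5 to 23, 17 to 38, 1 to 5 and 1 to 2, and stayed at 0 for 5/6 Nx-HPi-Hp against 5/6 Nx-LPi-Lp in edgeR's test. The causes were not tested.

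Replicate numbers are shared between groups in the labels but name different mice. Deviations of same-numbered libraries correlated at -0.201 to 0.409 and in no comparison all above 0.1, so the numbers were not taken to pair the mice. With the replicate block, 29, 2, 12 and 2 members were called in the order above, and 1 and 0 in the other comparisons.

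Of 3564 single-gene values over 186 results, 3003 kept their direction and side of the threshold, 433 no longer passed, 97 newly passed and 31 changed sign. Ccne2 against Sham, near 0, was at 0.00269 with log2(FPKM + 1), 0.016 with at least 10 counts in every library, 0.028 with all 16 libraries, 0.00218 without mitochondrially encoded genes and 0.29 after thinning, and ranged from -0.17 to 0.21 with 1 library left out. Mcm6 against 5/6 Nx-HPi-Hp ranged from -0.31 to 0.22 with 1 library left out, above 0 without 5/6 Nx-HPi-Lp replicate 4 or 5/6 Nx-HPi-Hp replicate 4. Mcm6 against 5/6 Nx-LPi-Lp was at 0.024 with total-count scaling, 0.00338 and 0.00652 with limma, 0.011 with the replicate block and 0.031 without mitochondrially encoded genes, and ranged from -0.19 to 0.20, above 0 without 5/6 Nx-HPi-Lp replicate 1 or 4 or 5/6 Nx-LPi-Lp replicate 4. Mcm7 against 5/6 Nx-HPi-Hp ranged from -0.016, without 5/6 Nx-HPi-Hp replicate 4, to 0.21. Cdk4 was at -0.040 against Sham with total-count scaling, and with 1 library left out ranged from -0.052 to 0.23 against Sham and from -0.00936 to 0.27 against 5/6 Nx-HPi-Hp, below 0 without 5/6 Nx-HPi-Lp replicate 2. On 5/6 Nx-HPi-Lp replicates 1 and 4 alone, Pcna, Tyms and Cdk4 were at -0.039, -0.057 and -0.22 against Sham, Cenpa, Tyms, E2f1 and Cdk4 at -0.37, -0.38, -0.10 and -0.18 against 5/6 Nx-HPi-Hp, and Rrm1 and Cdk4 at -0.012 and -0.014 against 5/6 Nx-LPi-Lp. Total-count scaling moved the median of all genes by -0.139 in 5/6 Nx-HPi-Lp, -0.208 in 5/6 Nx-HPi-Hp and -0.242 in 5/6 Nx-LPi-Lp against Sham, and by less than 0.06 in the other comparisons. At these depths, members with few counts per group, such as Hmmr, Nek2, Ttk and Bub1, could be tested in some comparisons only. They passed the count filter mainly through 5/6 Nx-HPi-Lp, where they were high, so their entry to the test was not independent of their level there.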

Other observations

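Regulators upstream of the members held calls in both directions. Of 13 G1 cyclins, CDK and pocket proteins, 3 rose and 1 fell in 5/6 Nx-HPi-Lp against Sham, where 15.0% and 7.18% of all genes did. Against 5/6 Nx-HPi-Hp 1 of 12 tested rose, as did 5.01% of all genes, and against 5/6 Nx-LPi-Lp 1 of 12, as did 7.90%. Cyclin D1 (Ccnd1), which couples growth signals to the cycle, was at 1.27, 1.58, 1.78 and 0.902 FPKM in Sham and 3.54, 5.70, 5.01 and 3.41 FPKM in 5/6 Nx-HPi-Lp, all 4 above Sham, and rose on the log2 scale by 1.65 ± 0.25 (adjusted p = 0.000622). It rose by 1.07 ± 0.26 (adjusted p = 0.016) in 5/6 Nx-HPi-Hp against Sham, with 0.89, 0.91 and 0.98 without Sham replicate 4 or 5/6 Nx-HPi-Hp replicate 1 or 3. Cyclin D2 (Ccnd2) went the other way, from 14.6, 15.7, 15.1 and 15.3 FPKM in Sham to 6.20, 6.10, 6.53 and 6.73 FPKM in 5/6 Nx-HPi-Lp, and on the log2 scale it fell by 1.28 ± 0.09 (adjusted p = 1.5e-05). The atypical repressor E2f7 rose by 3.97 ± 0.56 (adjusted p = 0.000441) against Sham and by 2.51 ± 0.70 (adjusted p = 0.0418) against 5/6 Nx-HPi-Hp, and the second call was lost in each of the 8 fits with 1 library left out (adjusted p of 0.0592 to 0.111). Rbl1, which encodes p107, rose by 1.00 ± 0.30 (adjusted p = 0.0425) against 5/6 Nx-LPi-Lp, a call that held in 1 of 8 such fits. Cdk4, the partner of cyclin D1, had a log2 fold change of 0.10 ± 0.16 (adjusted p = 0.656) against Sham, 0.15 ± 0.19 (adjusted p = 0.613) against 5/6 Nx-HPi-Hp and 0.34 ± 0.19 (adjusted p = 0.223) against 5/6 Nx-LPi-Lp, and its sign turned under other settings in each. In 5/6 Nx-LPi-Lp against Sham, 0 of 11 tested were called by edgeR, where 4 had an unadjusted p under 0.05, as did 7019 of 16071 genes in all.

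Some inhibitors of the cycle rose in 5/6 Nx-HPi-Lp, while their list as a whole did not stand higher than in Sham. Of 12 CDK inhibitors and p53 targets, 3 rose against Sham, 1 against 5/6 Nx-HPi-Hp and 2 against 5/6 Nx-LPi-Lp, where 15.0%, 5.01% and 7.90% of all genes did. Their median log2 fold change was -0.08, 0.22 and 0.23 in these comparisons, and their summed level was 502 to 576 CPM in Sham and 465 to 533 CPM in 5/6 Nx-HPi-Lp. Cdkn1a, which encodes p21, was at 14.9, 19.99, 10.6 and 11.8 FPKM in Sham, 17.8, 27.0, 45.7 and 27.2 in 5/6 Nx-HPi-Lp, 10.5, 8.65, 6.85 and 12.6 in 5/6 Nx-HPi-Hp and 6.79, 12.2, 11.9 and 11.8 in 5/6 Nx-LPi-Lp. It rose by 1.01 ± 0.29 (adjusted p = 0.0176) against Sham, with 0.87, 0.91 and 0.72 without Sham replicate 3 or 4 or 5/6 Nx-HPi-Lp replicate 3, and by 1.61 ± 0.30 (adjusted p = 0.0108) against 5/6 Nx-HPi-Hp and 1.46 ± 0.30 (adjusted p = 0.0108) against 5/6 Nx-LPi-Lp, which held with any 1 library left out. Cdkn2a, the p16 and Arf locus, was at 0.282, 0.0713, 0.294 and 0.0979 FPKM in Sham and 0.772, 1.51, 0.623 and 1.05 FPKM in 5/6 Nx-HPi-Lp, and rose by 2.36 ± 0.59 (adjusted p = 0.00961). Cdkn2c, which encodes p18, rose by 1.77 ± 0.19 (adjusted p = 0.000115) in 5/6 Nx-HPi-Lp and by 1.60 ± 0.42 (adjusted p = 0.0195) in 5/6 Nx-HPi-Hp against Sham, and by 1.07 ± 0.24 (adjusted p = 0.0165) against 5/6 Nx-LPi-Lp. The last 2 calls were each lost in 3 of 8 fits, without Sham replicate 1 or 2 or 5/6 Nx-HPi-Hp replicate 1, and without 5/6 Nx-HPi-Lp replicate 4 or 5/6 Nx-LPi-Lp replicate 3 or 4. In 5/6 Nx-LPi-Lp against Sham, 0 of 11 tested were called by edgeR, where 4 had an unadjusted p under 0.05, as did 7019 of 16071 genes in all.

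In 5/6 Nx-HPi-Hp against 5/6 Nx-LPi-Lp, no gene of the 4 further lists was called by edgeR. For each 100 CPM of the 6 macrophage markers, the 14 mitotic regulators summed to 5.10 to 11.1 CPM in Sham, 5.30 to 7.38 in 5/6 Nx-HPi-Lp, 4.51 to 7.77 in 5/6 Nx-HPi-Hp and 3.65 to 6.75 in 5/6 Nx-LPi-Lp. For each 100 CPM of the 6 fibroblast markers they summed to 0.475 to 1.19, 1.16 to 1.59, 0.820 to 1.96 and 0.773 to 1.13 CPM. These ratios were computed after the markers and the members had both been seen to be higher in 5/6 Nx-HPi-Lp, and they were not tested.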
